A study of Homo sapiens with 11 samples.

Results

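Of the 11 arrays of this series, 4 are described here. They are the 2 arrays of cells given ICI and 2 arrays of cells labelled alike but without it. They were chosen by title and form 2 pairs, ICI against control 2, and E2-BSA+ICI against E2-BSA 2. The first pair had no E2-BSA and the second had it on both sides, so each pair compares 1 array with ICI with 1 array without it in 1 setting. The arrays of a pair may differ in other ways too, such as a solvent given with ICI. The other control and E2-BSA arrays (control 1 and E2-BSA 1) were left out of the pairs, because they and the estradiol array had higher signals at the 24 poly-A spike-in probe sets. The mean of those probe sets was 1.40 to 1.62 in these 3 arrays and -0.56 to 0.10 in the other 8, including all 4 arrays of the pairs.

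The cells were MDA-MB-231, an established human line of triple-negative breast cancer, all of 1 line and with no gene altered. Every culture was preincubated for 4 h in medium with hormone-stripped serum and then treated for 3 h. The control cells had no added agent. ICI, which the labels give by this abbreviation alone, was present at 10 µM, and E2-BSA, a conjugate of estradiol with the carrier protein bovine serum albumin, at 1 µM. The remaining arrays were of G15 at 10 µM alone and with E2-BSA, bovine serum albumin (BSA) alone at 1 µM, ethanol at 0.1% and free estradiol at 1 µM. There were 2 arrays of control and of E2-BSA and 1 of each of the other 7 groups. Whether arrays stand for separate cultures is not given by the labels. In the fit to all arrays, a term for the spike-in set parted the 2 control arrays and the 2 E2-BSA arrays. No array was therefore fitted as a replicate of another. The p-values of that fit measure departures from a sum of the fitted terms, which may be technical, and not the spread between replicate cultures.

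Estrogens act through nuclear receptors, which bind DNA and alter transcription over hours, and through receptors at membranes, among them the G protein-coupled receptor GPER1, which signal within minutes through kinases and cyclic AMP. E2-BSA is used to favour the membrane receptors, since the conjugate enters cells poorly, and G15 is an antagonist of GPER1. MDA-MB-231 cells are known for lacking appreciable estrogen receptor alpha, the ESR1 product, and are often used to study responses that do not need it. Antagonists are added alone as well as with the hormone because an antagonist can have a response of its own.

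Each deposited value was taken as a log2 value relative to the middle of its probe set, so it gives differences between arrays and not the level of a gene, and the cell line could not be checked by the level of its markers. A difference of 1 on this scale is a doubling. The 19775 genes were read by 41091 probe sets with 1 gene symbol each, averaged per gene. The median gene was 0.16 higher in the ICI array than in control 2 and 0.12 higher in E2-BSA+ICI than in E2-BSA 2, and all differences below are relative to the median gene.

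Relative to the median gene, the genes with the largest differences were lower with ICI in both pairs. The ubiquitin ligase gene RFWD3 differed by -2.44 in the first pair and -2.60 in the second, the histone chaperone gene NPM3 by -1.66 and -1.73, the lamin gene LMNB1 by -1.67 and -1.33 and the superoxide dismutase gene SOD1 by -1.38 and -1.33. In all, 124 genes (0.627% of those tested) were lower by more than 0.5 in both pairs, 22 (0.111%) were higher by more than 0.5 in both, and 0 passed 0.5 in opposite directions. On the values without centring 81 genes were lower and 112 higher by more than 0.5 in both pairs, and after quantile normalization 252 and 116, so the balance of directions at 0.5 depended on the scaling. At a difference of 1 the counts were 23 lower (0.116%) and 0 higher, and without centring 14 and 0. None of this passed the test for ICI across genes: limma, fitted to all 11 arrays with a term for the spike-in set, called 0 of 19775 genes (0%) at an adjusted p of 0.05, and the smallest adjusted p was 0.275.

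That fit had 3 residual degrees of freedom, and 1470 genes had an unadjusted p under 0.05, 781 of them lower with ICI (3.95% of all genes) and 689 higher (3.48%). The arrays with G15 weighed on the result. Without the G15 array limma called 38 genes, without the E2-BSA+G15 array 32, and without both 41 (0.207%), in each case all lower with ICI. All 41 were among the 124 genes lower by more than 0.5 in both pairs. The 4 arrays of the pairs alone, with 1 residual degree of freedom, gave 267 genes lower (1.35%) and 113 higher (0.571%), which included all 124 and all 22 of the genes above. The 124 and the 22 were chosen on these same 4 arrays, so these overlaps, and that of the 41, are no separate support. With 2 arrays against 2, an exact two-sided permutation test of a single gene cannot give a p under 0.333. The direction of a gene in the text is therefore a description of these arrays unless a test is named beside it.

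**Figure D1:**
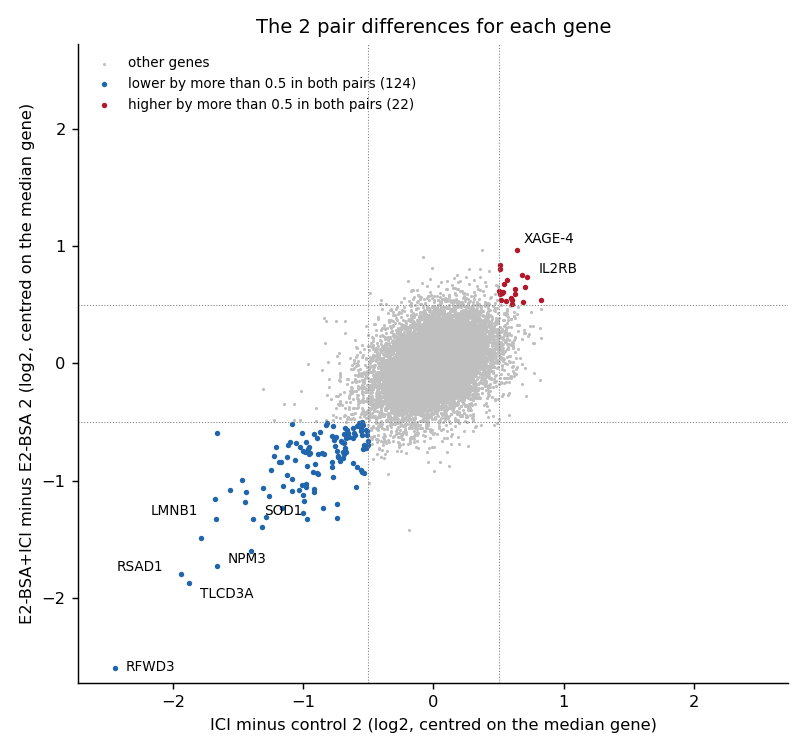
Each point is 1 of 19775 genes, with ICI minus control 2 on the horizontal axis and E2-BSA+ICI minus E2-BSA 2 on the vertical axis, both in log2 and centred on the median gene. Dotted lines mark differences of 0.5. The 124 blue points at the lower left reach further from 0 than the 22 red points at the upper right, and RFWD3 lies farthest out.

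Over all genes the 2 pairs, which have no array in common, had a correlation of 0.45 (across genes, which are not replicates). The SD over genes was 0.21 in each pair. The direction was the same in 12592 of 19775 genes (63.7%), 31.8% of genes being lower in both and 31.8% higher in both, shares that the centring makes equal. The first pair alone had 322 genes lower by more than 0.5 (1.63%) and the second 336 (1.7%).

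RFWD3 encodes a ubiquitin ligase that acts at stalled replication forks. Its value was 1.5 in control 2 and 1.45 in E2-BSA 2, and -0.95 in the ICI and -1.15 in the E2-BSA+ICI array. Both ICI arrays lay below all 9 arrays without ICI, of which G15 was the nearest at -0.79. The mean difference was -2.52 ± 0.43 (SE), with a limma adjusted p of 0.614 in the fit to 11 arrays and 0.00581 without the G15 arrays. This gene was read by 1 probe set.

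TLCD3A had values of 0.27 and 0.36 without ICI and -1.60 and -1.52 with it. RSAD1, a gene of the radical SAM enzyme family, had 0.15 and 0.07 without ICI and -1.78 and -1.73 with it. NPM3, of the nucleoplasmin family of histone chaperones, had 1.03 and 1.29 without ICI and -0.63 and -0.44 with it. In all 3 genes the ICI arrays were the lowest of the 11, and the G15 array, at -1.38, -1.71 and -0.13, came next for TLCD3A and RSAD1, whereas control 1 and the estradiol array, at -0.17 and -0.29, were below it for NPM3.

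LMNB1, which encodes a protein of the nuclear lamina, had 0.22 and 0.23 without ICI and -1.45 and -1.09 with it. CREG1, a secreted and lysosomal glycoprotein gene, had -0.07 and -0.32 without ICI and -1.85 and -1.81 with it. The spike-in set of 3 arrays had CREG1 values of 1.70 to 1.81, so the 2 control arrays differed from each other by more than the ICI array differed from control 2. NEU1, the lysosomal sialidase, had -0.26 and -0.27 without ICI and -1.71 and -1.45 with it.

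The cytosolic superoxide dismutase SOD1 had -0.27 and -0.24 without ICI and -1.65 and -1.57 with it. Its lowest value was in the G15 array, at -2.04. PTX3, the long pentraxin of innate immunity, had -0.94 and -0.72 without ICI and -2.22 and -2.03 with it. It also varied widely elsewhere, from -2.26 in the G15 array to 1.49 in the BSA array. TTC7B, a scaffold of the lipid kinase complex at the plasma membrane, had 0.07 and -0.03 without ICI, -1.33 and -1.63 with it and -1.80 with G15.

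HACL1, a peroxisomal lyase of fatty acid alpha-oxidation, had -0.02 and 0.04 without ICI and -1.34 and -1.36 with it. KATNAL1, a microtubule-severing subunit, had -0.16 and -0.08 without ICI and -1.32 and -1.31 with it, a mean of 2 probe sets that did not agree. One of them differed by -2.42 and -2.05 in the pairs and the other by 0.09 and -0.42. Of these 12 genes KATNAL1 was the only 1 read by more than 1 probe set. Their SE in the fit to 11 arrays ran from 0.25 to 0.56 and their limma adjusted p from 0.614 to 0.668, against 0.00337 to 0.0151 without the G15 arrays.

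DENND4B, which encodes an exchange factor for a Rab GTPase and was read by a single probe set, had the smallest adjusted p of all genes. It was 0.41 and 0.34 without ICI and -1.03 and -0.76 with it, a mean difference of -1.27 ± 0.13 (SE; limma adjusted p = 0.275). In the G15 array it was -0.13. Both ICI arrays lay below the other 9, whose lowest value was -0.28 in control 1.

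The 12 genes highest in both pairs differed less. IL2RB, a chain of the interleukin receptors of lymphocytes, had -0.57 and -0.24 without ICI and 0.16 and 0.50 with it, and 0.48 with G15. XAGE-4, a cancer-testis gene, had -0.61 and -0.46 without ICI and 0.03 and 0.51 with it. The annexin pseudogene ANXA2P3 had 0.06 and -0.02 without ICI and 0.73 and 0.73 with it, with 0.68 in the BSA and 0.63 in the G15 array. Their mean differences were 0.73 ± 0.23, 0.80 ± 0.16 and 0.72 ± 0.20 (SE).

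The other 9 were LOC148696, PSLNR, RGSL1, AGXT2, EDAR, CCT8L2, ASB16, TPRXL and DLK2, with mean differences from 0.57 for DLK2 to 0.68 for TPRXL. EDAR is the ectodysplasin receptor of skin appendages and AGXT2 a mitochondrial aminotransferase. PSLNR was closest between the pairs, at 0.63 and 0.63, with -0.31 and -0.32 without ICI and 0.32 and 0.32 with it. All 22 genes higher by more than 0.5 in both pairs had 1 probe set, against 64 of the 124 lower genes and 46.8% of all genes.

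Both ICI arrays were below all 9 arrays without ICI for 512 genes (2.59%) and above all 9 for 525 (2.65%). Of the 124 genes lower in both pairs 34 were below all 9, and of the 22 higher genes 12 were above all 9.

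**Figure D2:**
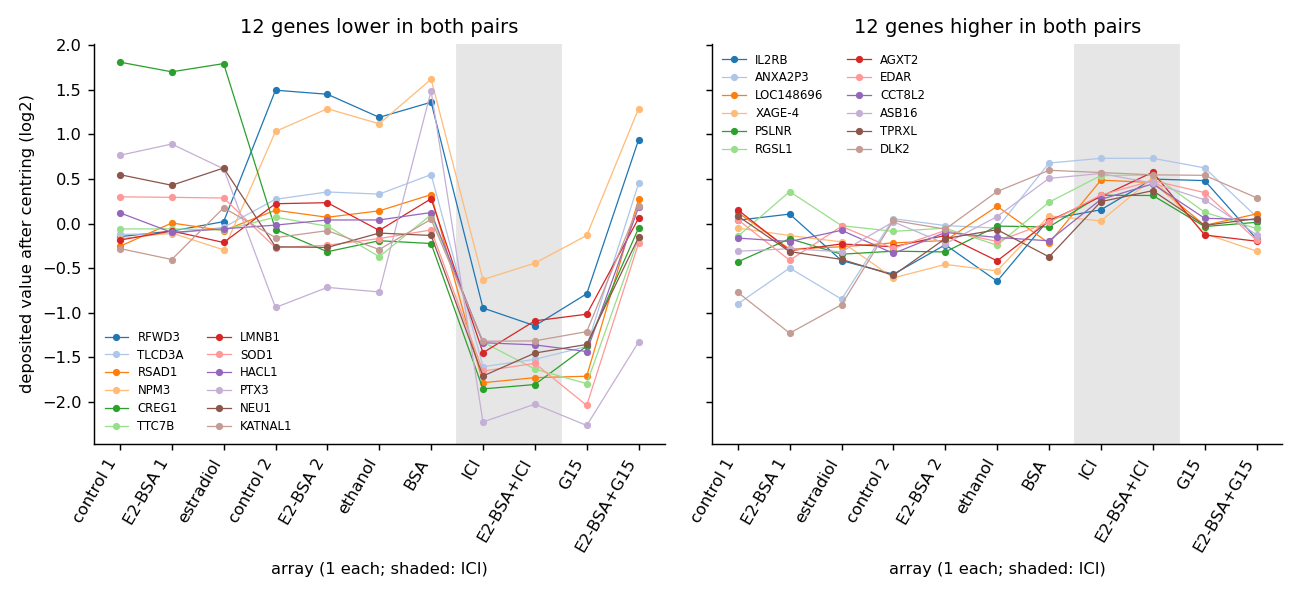
Values of the 12 genes lowest (left) and highest (right) in both pairs, by array, in log2 after centring. Lines join the values of 1 gene, and the shaded columns are the 2 ICI arrays, where the left panel drops together; the G15 array stands nearly as low, at -0.13 to -2.26, while E2-BSA+G15 is mostly near the arrays without antagonist.

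For 3 of the lower genes the sequence around the transcription start (250 bases before to 50 after, RefSeq, GRCh38.p14, in the direction of transcription) is shown, because they are the gene with the largest difference, the gene with the smallest adjusted p, and a cell cycle gene read low by 2 probe sets. Capitals mark the estrogen response core motif GGTCA and the ETS motif CCGGAAG, each on either strand. RFWD3 lies on chr16:74666828-74667127 (minus strand), DENND4B on chr1:153946669-153946968 (minus strand) and AURKB on chr17:8210176-8210475 (minus strand).
RFWD3: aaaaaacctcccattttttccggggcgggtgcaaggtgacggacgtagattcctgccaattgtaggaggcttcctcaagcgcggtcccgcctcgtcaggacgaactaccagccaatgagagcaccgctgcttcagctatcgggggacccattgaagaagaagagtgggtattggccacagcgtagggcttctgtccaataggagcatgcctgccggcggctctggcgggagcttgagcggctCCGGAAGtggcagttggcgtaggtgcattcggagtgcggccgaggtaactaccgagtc
DENND4B: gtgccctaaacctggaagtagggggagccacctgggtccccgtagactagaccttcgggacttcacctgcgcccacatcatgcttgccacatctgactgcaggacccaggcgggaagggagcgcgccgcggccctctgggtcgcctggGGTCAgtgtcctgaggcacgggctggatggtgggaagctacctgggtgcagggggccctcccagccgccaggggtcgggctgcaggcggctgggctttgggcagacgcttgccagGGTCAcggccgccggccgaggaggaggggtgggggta
AURKB: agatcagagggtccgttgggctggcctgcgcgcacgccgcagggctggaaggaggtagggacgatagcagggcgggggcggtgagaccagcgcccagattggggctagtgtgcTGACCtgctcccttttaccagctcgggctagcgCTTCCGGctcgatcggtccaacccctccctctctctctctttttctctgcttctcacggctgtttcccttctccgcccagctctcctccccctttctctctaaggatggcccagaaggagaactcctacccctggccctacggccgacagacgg

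RFWD3 held 0 core motifs and 1 ETS motif, DENND4B 2 core motifs and 0 ETS motifs, and AURKB 1 of each. Of the 124 lower genes 108 had a promoter of this length in the table, out of 15384 genes, and of the 22 higher genes 10. The core motif GGTCA was in 42 of the 108 (38.9%) and in 35.5% of all promoters. The full element GGTCANNNTGACC was in 0 of the 108 and in 6 of all 15384 promoters. The ETS motif was in 32 of the 108 (29.6%) and in 14.4% of all, the GC box GGGCGG in 67 (62.0%) and in 58.9% of all, the AP-1 motif TGACTCA in 3 (2.78%) and in 3.74% of all, and the cyclic AMP element TGACGTCA in 1 (0.926%) and in 2.67% of all. Among the 10 higher genes 5 held the core motif, 1 the GC box and 0 any of the others. These are counts of letters in a window, with no test. The core motif overlaps the full element, which contains it.

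Most of the low readings came from single probe sets of genes whose other probe sets were near 0 on average. Of all 41091 probe sets 562 lay below -0.5 in each pair (1.37%), 128 of them by more than 1, and 71 were higher by more than 0.5 (0.173%), 0 of them by more than 1. The 562 read 533 genes, of which 469 had further probe sets. The remaining 1310 probe sets had a median of -0.04 in the first pair and -0.02 in the second. Of them 65 (4.96%) were below -0.3 in each pair, against 1243 of the 40529 probe sets that were not among the 562 (3.07%); both counts leave out the 562. Readings below -0.5 in each pair by 2 or more probe sets occurred in 27 genes.

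RELA, a subunit of NF-kB, is an example. One of its probe sets differed by -1.86 and -1.61 in the pairs, and the other by -0.12 and 0.10. The mean of the gene was -0.87 ± 0.23 (SE), so a value of a gene here can rest on 1 probe set. The 13522 probe sets that had several gene symbols or none behaved alike, with 291 lower by more than 0.5 in both pairs (2.15%) and 24 higher (0.178%).

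**Figure D3:**
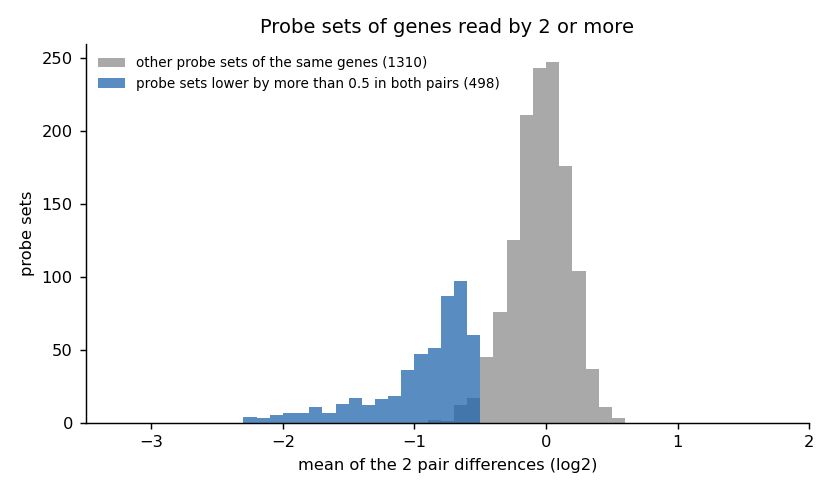
Number of probe sets by the mean of their 2 pair differences (log2), for genes with 2 or more probe sets of which at least 1 was lower by more than 0.5 in both pairs. The 498 chosen probe sets (blue) lie below -0.5 by choice, and the 1310 other probe sets of the same genes (grey) centre near 0.

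In a smaller number of genes the probe sets agreed. Among the 10523 genes with 2 or more probe sets, most of a gene's probe sets were below -0.3 in each pair for 44 genes and above 0.3 for 8, a criterion set after the values were seen. All of the gene's probe sets agreed in 16 of the 44 and 3 of the 8. OFD1, a centriole and cilium protein, had gene values of -0.07 and -0.11 without ICI and -1.15 and -1.20 with it. Its 2 probe sets differed by -1.84 and -1.71, and by -0.33 and -0.46. FXYD5, a regulator of the sodium pump, had 0.51 and 0.65 without ICI and -0.50 and -0.39 with it. RBM10, a splicing regulator, was lower in all 3 probe sets, with 0.03 and 0.17 without ICI and -0.97 and -1.0 with it. In all 3 genes both ICI arrays lay below the other arrays of the pairs.

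The exonuclease ERI1 had 0.17 and 0.13 without ICI and -0.74 and -0.96 with it. PPP1R10, a regulatory subunit of a protein phosphatase, had 0.46 and 0.36 without ICI and -0.42 and -0.59 with it. RAD17, which loads the checkpoint clamp at damaged DNA, was lower in all 3 probe sets, with -0.06 and -0.08 against -0.68 and -0.63. In the G15 array ERI1 was at -0.78, PPP1R10 at -0.34 and RAD17 at -0.56. PPP1R10 was lowest of all in the E2-BSA+G15 array, at -0.95, where ERI1 was at 0.36 and RAD17 at 0.10. In the fit to all arrays the limma adjusted p was 0.614 for OFD1, FXYD5, ERI1, PPP1R10 and RAD17 and 0.635 for RBM10. None of them passed. Without the G15 arrays, a fit added after the data were seen, it was 0.0125 for OFD1, 0.0307 for FXYD5 and 0.0135 for RBM10. In that fit it was 0.0513 for ERI1, 0.044 for PPP1R10 and 0.0971 for RAD17, so ERI1 and RAD17 did not pass. These genes were chosen by their pair differences on these same arrays, so the values under 0.05 are no separate support.

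RPL38, a protein of the large ribosomal subunit, had the largest median over probe sets averaged over both pairs, with 1.17 and 0.89 without ICI and -0.01 and 0.04 with it. Control 1 and E2-BSA 1 had -1.27 and -1.04, so the ICI arrays lay between the 2 arrays of each group without ICI. The same held for AURKB, CDT1, MRPL52 and E2F3, whose ICI values were above those of control 1 and E2-BSA 1. With both control and both E2-BSA arrays averaged and no term for the spike-in set, the differences of RPL38, AURKB, CDT1 and E2F3 became 0.08, 0.10, 0.0032 and 0.05. Of the 8 higher genes CHST5, a sulfotransferase, had the largest mean difference, 0.50 ± 0.19 (SE), and LILRB1, an inhibitory receptor of leukocytes, had 0.41 ± 0.10 (SE), with limma adjusted p of 0.642 and 0.614.

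The low readings of the ICI arrays were compared with the antagonist and carrier arrays that had no array in common with the pair used to choose the genes. The 336 genes lower by more than 0.5 in E2-BSA+ICI than in E2-BSA 2 had a median of -0.38 in ICI minus control 2, where 124 of them (36.9%) were lower by more than 0.5. Their median was -0.37 in G15 minus control 2, where 140 of them (41.7%) were past 0.5, against 406 of all genes (2.05%). It was -0.0034 in BSA minus control 2, where 20 (5.95%) were past 0.5 against 2.86% of all genes, and -0.0090 in ethanol minus control 2, where 12 (3.57%) were past 0.5 against 1.77%. These 4 comparisons share control 2 with each other.

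For the 35 genes lower by more than 1 in the second pair the medians were -1.16 with ICI, -1.17 with G15, 0.14 with BSA and 0.00036 with ethanol. The number of the 35 past 1 was 23, 26, 0 and 0, against 0.238%, 0.324%, 0.435% and 0.0455% of all genes. In the other direction, the 322 genes lower by more than 0.5 in the first pair had a median of 0.0038 in E2-BSA+G15 minus E2-BSA 2, where 39 (12.1%) were past 0.5 against 3.54% of all genes. By these shares more of the low genes were also low in the G15 array than in the E2-BSA+G15 array, a difference that was not tested. Across genes the correlation of the second pair was 0.44 with G15 minus control 2, 0.08 with BSA minus control 2 and 0.01 with ethanol minus control 2, and that of the first pair was 0.11 with E2-BSA+G15 minus E2-BSA 2. The median over all probe sets was 0.06 in each of the ICI, G15 and E2-BSA+ICI arrays, 0.09 in the BSA array and at most 0 in the others before centring, and the part of such array differences in the low readings was not tested.

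**Figure D4:**
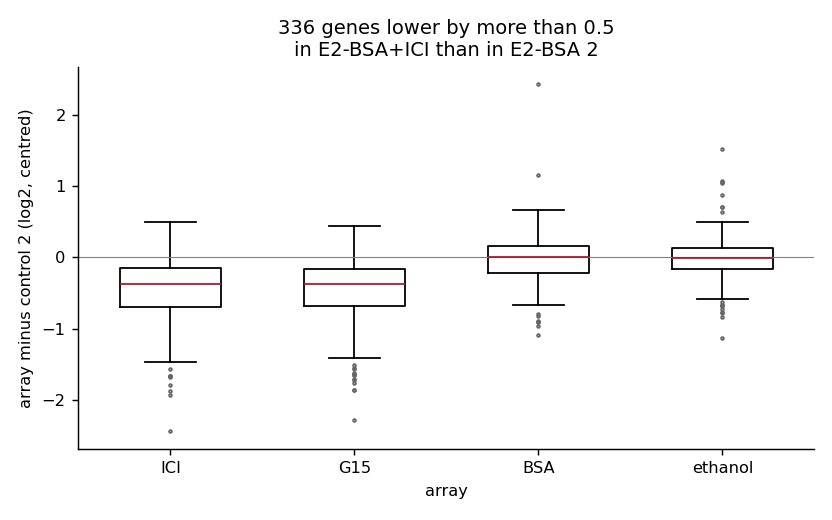
Differences from control 2 (log2, centred) of the 336 genes that were lower by more than 0.5 in E2-BSA+ICI than in E2-BSA 2, in the ICI, G15, BSA and ethanol arrays. Boxes span the quartiles with the median in red, whiskers reach the farthest gene within 1.5 box heights, and dots are genes beyond; the medians are -0.38, -0.37, -0.0034 and -0.0090.

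Control probe sets of the arrays differed little within the pairs. The GAPDH probe set at the transcript's 3′ end differed by 0.03 and 0.02 in the pairs and the one at the 5′ end by -0.06 and 0.07. The mean of the hybridisation controls differed by -0.06 and -0.04. The 18S ribosomal RNA probe sets differed by -0.28 to 0.28 in the pairs, whereas they were at -1.57 to -1.89 in the E2-BSA+G15 array, which stood apart from all others.

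ICI and G15 were compared at the same dose and time, without and with E2-BSA, 1 comparison of 2 compounds over all genes. Limma called 0 of 19775 genes (0%), with 977 at an unadjusted p under 0.05 and a smallest adjusted p of 0.926. Of the 19775 genes, 232 differed by more than 0.5 between the ICI and G15 arrays without E2-BSA, and 1418 with it. By the same threshold 519 differed between ICI and control 2, and 517 between E2-BSA+ICI and E2-BSA 2. The count of 1418 rests on the E2-BSA+G15 array, which stood apart in its ribosomal RNA control probe sets. The part of that array in the larger count was not tested. In both settings 6 genes were higher with ICI than with G15 and 10 lower by more than 0.5. The correlation of the ICI against G15 differences in the 2 settings, which share no array, was -0.02 across genes.

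DENND4B led this comparison too, at -1.03 with ICI against -0.13 with G15, and -0.76 with E2-BSA+ICI against 0.26 with E2-BSA+G15, a mean difference of -0.96 ± 0.13 (SE; limma adjusted p = 0.926). BCHE, which encodes butyrylcholinesterase, had -0.10 against 0.65 and -0.21 against 0.83, a mean difference of -0.89 ± 0.13 (SE). AJM1, RTN4IP1 and LINC01963 were lower with ICI by 0.70, 0.62 and 0.78 on average. SLC38A5, an amino acid transporter, had 0.52 with ICI against -0.27 with G15, and 0.33 against -0.56 in the presence of E2-BSA, a mean difference of 0.83 ± 0.15 (SE). LINC01231, OR1F2P, P4HA3-AS1 and NEURL3 were higher with ICI by 0.67, 0.62, 0.52 and 0.65 on average. These 10 genes were the first 5 in each direction by p in this test.

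Whether the ICI difference changed with E2-BSA was tested as an interaction. Limma called 0 of 19775 genes (0%), with 399 at an unadjusted p under 0.05 and a smallest adjusted p of 0.9998. The largest by p in 1 direction was POGLUT2, a glycosyltransferase of the endoplasmic reticulum, which was -0.25 in control 2 and 0.07 with ICI, and 0.02 in E2-BSA 2 and -0.52 with E2-BSA+ICI. Its fitted interaction was -0.94 ± 0.18 (SE). In the other direction GLYCTK-AS1 was -0.05 and -0.41 without E2-BSA and -0.14 and 0.37 with it, an interaction of 0.81 ± 0.18 (SE). ZNF486, TTLL13, HTR6 and NDST4 followed with interactions of 0.73 to 0.98, and CACNA1S, MSH4, C2CD2L and CEND1 with -0.75 to -0.86. The limma adjusted p of each of these 10 genes was 0.9998, with an unadjusted p of 0.0014 to 0.0050.

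Gene lists are described by counts and medians of the mean of both pair differences, relative to the median gene. Over all genes 10035 were higher and 9740 lower. The estrogen receptors differed little with ICI. ESR1 had -0.13 and -0.05 without ICI and 0.03 and 0.07 with it, over 9 probe sets, a mean difference of 0.14 ± 0.10 (SE). GPER1 had -0.25 and -0.28 without ICI and -0.09 and -0.15 with it, a mean difference of 0.15 ± 0.11 (SE). In both genes the ICI arrays lay above the matched arrays, by less than 0.2. ESR2, the second nuclear estrogen receptor, differed by 0.10 ± 0.10 and PGR, the progesterone receptor, by -0.13 ± 0.12 (SE).

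The other receptors measured were NR3C1 (glucocorticoid, -0.03), NR3C2 (mineralocorticoid, 0.04) and the estrogen-related receptors ESRRA (0.07), ESRRB (0.01) and ESRRG (0.14). Of the 9 receptors 7 were higher and 2 lower, with a median difference of 0.07 against 0.0027 for all genes, and 0 passed the limma test. PGR and NR3C1 were above 0 on values without centring, at 0.0077 and 0.11, and the choice of probe set turned ESR2 and ESRRB below 0, at -0.07 and -0.11. Their limma adjusted p ran from 0.768 for ESR1 to 0.995 for ESRRB.

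Of 27 measured genes known to be induced by estrogen in receptor-positive breast cells, 13 were higher and 14 lower, with a median of -0.0052, and 0 passed. TFF1, a secreted trefoil peptide and a classic target of ESR1, had -0.15 and -0.06 without ICI and -0.56 and -0.52 with it, a mean difference of -0.43 ± 0.36 (SE; limma adjusted p = 0.804). Its values in the spike-in set of 3 arrays were 2.69 to 3.63, far above the rest. PDZK1, a scaffold protein, was lower by 0.26 ± 0.11 and ADCY9, an adenylyl cyclase, by 0.24 ± 0.10, while CCN5, a matricellular protein, was higher by 0.35 ± 0.21 (SE). PDZK1 and ADCY9, 2 of the 27 (7.41%), were lower with an unadjusted p under 0.05, as were 3.95% of all genes.

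Among 19 genes reported to respond to GPER1 signalling 12 were higher and 7 lower, with a median of 0.05 and 0 passing. KCNK9, NR4A2 and CCNA1 were higher by 0.26 ± 0.17, 0.25 ± 0.21 and 0.20 ± 0.14 (SE), and RGS2, a brake on G protein signalling, was lower by 0.19 ± 0.16 (SE). The medians in the 2 pairs were -0.0033 and -0.00093. Genes of steroid metabolism had 7 higher and 13 lower of 20, with a median of -0.05. HSD17B1, which makes estradiol from estrone, had 0.24 and 0.46 without ICI and -0.13 and -0.21 with it, a mean difference of -0.52 ± 0.15 (SE; limma adjusted p = 0.614). The low probe set of HSD17B1 differed by -0.91 and -1.10 in the pairs, and its other probe set by 0.16 and -0.23. UGT1A1, a glucuronosyltransferase, was lower by 0.38 ± 0.12, CYP11A1 by 0.37 ± 0.17 and AKR1C3 by 0.26 ± 0.38 (SE).

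Targets of the LXR receptors had 8 of 9 genes lower and 1 higher, with 7 lower in both pairs, against 31.8% of all genes, and a median of -0.08. LPCAT3, which remodels phospholipids, had -0.01 and 0.12 without ICI and -0.66 and -0.21 with it, a mean difference of -0.49 ± 0.13 (SE). ABCA1, the cholesterol exporter, had -0.10 and -0.04 without ICI and -0.43 and -0.37 with it, a mean of -0.32 ± 0.13 (SE). APOE was lower by 0.17 ± 0.11 and SREBF1, the 1 higher gene, higher by 0.18 ± 0.13 (SE). With 0 of 9 past the limma test, these counts describe the list only.

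Genes of sterol synthesis and uptake had 7 higher and 12 lower of 19, with MVD, a decarboxylase of the mevalonate pathway, lower by 0.54 ± 0.22 and INSIG1 by 0.20 ± 0.12, and STARD4 and ACAT2 higher by 0.21 ± 0.10 and 0.20 ± 0.11 (SE). Of 11 metal-responsive genes 6 were higher, with the highest median of all lists, 0.12. MT1F, MT1M and MT1E, which encode metallothioneins, were higher by 0.37 ± 0.17, 0.22 ± 0.15 and 0.16 ± 0.11 (SE), and the zinc importer SLC39A10 was lower by 0.25 ± 0.14 (SE).

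NF-kB and inflammatory genes had 16 higher and 21 lower of 37, with a median of -0.03. Beside RELA, the mitochondrial superoxide dismutase SOD2 had 1.06 and 0.62 without ICI and -0.01 and 0.27 with it, a mean difference of -0.71 ± 0.24 (SE; limma adjusted p = 0.634). SOD2 became 0.25 with all duplicates averaged and no term for the spike-in set. TNFAIP3, an inhibitor of NF-kB, was lower by 0.30 ± 0.17 (SE). The chemokine CXCL8 differed by -0.435 and -0.20 in the pairs, a mean of -0.32 ± 2.42 (SE). Its values ran from -3.11 in the ICI array to 2.71 in E2-BSA 1. Both pairs were lower, but the SE of the fit was too large to tell a direction.

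Interferon-stimulated genes had 24 higher and 14 lower of 38. SAMD9 was lower by 0.91 ± 0.32, MX1 by 0.41 ± 0.14 and IFI44 by 0.27 ± 0.18, while IFIT2 was higher by 0.31 ± 0.22 (SE). The probe sets of SAMD9 did not agree, with differences of -2.05 and -1.60 in the pairs for the low probe set and -0.18 and 0.21 for the other. Genes of the unfolded protein response had 9 higher and 12 lower of 21. The chaperone HSP90B1 was lower by 0.84 ± 0.33 (SE) in 2 probe sets, and lowest of all in the E2-BSA+G15 array, at -1.47. SEC24D and DNAJC3 were lower by 0.23 ± 0.12 and 0.22 ± 0.10 and EDEM1 higher by 0.28 ± 0.12 (SE).

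Cell cycle genes had members in both directions. Of 38 genes of the G1/S transition and replication 24 were higher and 14 lower, with a median of 0.04. CDT1, which licenses replication origins, had 0.32 and 0.43 without ICI and -0.23 and -0.07 with it, a mean difference of -0.53 ± 0.11 (SE; limma adjusted p = 0.614). E2F3 and ORC6 were lower by 0.50 ± 0.11 and 0.32 ± 0.17 and CCND3 higher by 0.31 ± 0.10 (SE). Of 35 mitotic genes 16 were higher and 19 lower, with a median of -0.0085.

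The mitotic kinase AURKB, whose promoter sequence was printed, had 1.03 and 1.06 without ICI and 0.05 and 0.38 with it, a mean difference of -0.82 ± 0.17 (SE; limma adjusted p = 0.614). Its 2 probe sets differed by -1.08 and -0.98, and by -0.87 and -0.37. AURKA, the related spindle kinase, had 0.29 and 0.32 without ICI and -0.46 and -0.06 with it. Its 3 probe sets did not agree, with differences of -1.64 and -0.73, -0.61 and -0.41, and -0.0058 and -8.2e-05. AURKA was at -0.63 in the G15 array and at 0.18 in the E2-BSA+G15 array. The phosphatases CDC25C and CDC25B, which activate cyclin-dependent kinases, were lower by 0.44 ± 0.22 and 0.36 ± 0.13 (SE). The low probe set of CDC25C differed by -1.02 and -1.64 in the pairs. Its other probe sets differed by 0.16 and -0.16, and by 0.08 and -0.07.

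Of 44 ribosomal protein genes 15 were higher and 29 lower with a median of -0.03. RPL38 was the single list member past 0.5 in both pairs. RPLP2 and RPL14 were lower on average by 0.26 ± 0.17 and 0.19 ± 0.13, and RPS12 higher by 0.27 ± 0.10 (SE). The low probe set of RPL14 differed by -0.87 and -0.73 in the pairs. Its other probe sets were higher, by 0.15 and 0.15, and by 0.10 and 0.05. RPL27A, which was not in the list and is named after its values were seen, was past 0.5 too, at 1.0 and 0.98 without ICI and -0.03 and 0.26 with it. Of 26 respiratory chain genes 17 were higher and 9 lower, with COX7B, a subunit of cytochrome oxidase, lower by 0.55 ± 0.18 and NDUFV2, NDUFA9 and SDHD higher by 0.30 ± 0.11, 0.30 ± 0.11 and 0.23 ± 0.10 (SE). The glycolytic ALDOC and the tissue factor gene F3 were the members past 0.5 in both pairs from 2 further lists, lower by 0.64 ± 0.18 and 1.23 ± 0.34 (SE). F3 had 0.13 and -0.22 without ICI and -1.33 and -1.22 with it, and -1.49 with G15.

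Markers of leukocytes, which a pure culture of this line should not hold, had 11 of 13 genes higher and 2 lower with a median of 0.08. CD3E was higher by 0.49 ± 0.17, CSF1R by 0.40 ± 0.20, CD79A by 0.28 ± 0.11 and GNLY by 0.24 ± 0.13 (SE), while PTPRC, which all leukocytes carry, differed by 0.05. Levels cannot be read from centred values, and the part of such transcripts in the differences was not tested.

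Histone genes were the list whose 2 pairs lay farthest apart. Their median over 16 genes was -0.12 in the first pair and 0.24 in the second. H2BC21 had -0.05 in control 2 and -0.13 with ICI, but -0.76 in E2-BSA 2 and 0.15 with E2-BSA+ICI, and H2AC6 had -0.07 and 0.21, then -0.71 and 0.10. In both genes the E2-BSA 2 array was low and the ICI arrays were near control 2. The mean differences were 0.41 ± 0.39 for H2BC21, 0.54 ± 0.51 for H2AC6, -0.42 ± 0.39 for H4C8 and 0.37 ± 0.15 for H3C1 (SE), and the difference between the pairs as a list was not tested. H4C13 and H3-3A, outside the list and named after their values were seen, were lower in both pairs, with mean differences of -0.60 and -0.68.

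Over the 41 lists, the median mean difference ran from -0.08 for LXR targets to 0.12 for metal-responsive genes. In all lists 0 members passed the limma test in the fit to 11 arrays. Members lower by more than 0.5 in both pairs were RELA, HSP90B1, ALDOC, SAMD9, NEU1, F3, CDT1, AURKB and RPL38. These were 1 each in 9 lists of 16 to 44 measured genes, and over all genes the share was 0.627%. The lists had 0 members higher by more than 0.5 in both, against 0.111% of all genes. RELA and SAMD9 each rested on a low probe set that the other probe set of the gene did not share. NEU1, ALDOC and F3 were read by 1 probe set each. RPL38, AURKB and CDT1 became 0.08, 0.10 and 0.0032 with all duplicates averaged and no term for the spike-in set.

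**Figure D5:**
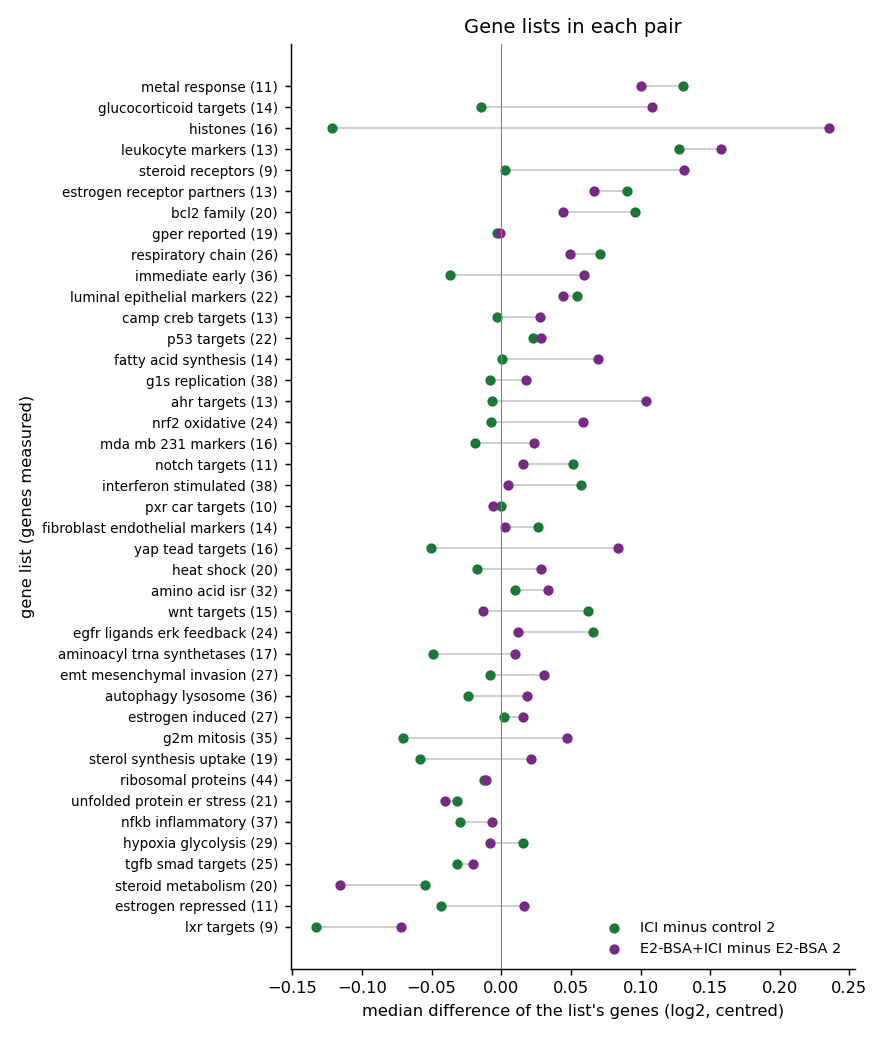
Median difference (log2, centred) of the genes of each list, in ICI minus control 2 (green) and E2-BSA+ICI minus E2-BSA 2 (purple), with the number of genes measured in brackets and a line joining the 2 medians. Lists are sorted by the median of the mean difference; histones have the longest line, from -0.12 to 0.24, and LXR targets lie lowest.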

How the data were processed

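RNA of MDA-MB-231 cells was hybridised to 11 Affymetrix HG-U133 Plus 2.0 arrays, per the labels. The deposited values of 54675 probe sets were taken, from their range around 0, to be on a log2 scale and centred for each probe set; the log base, centring, summary and normalization are not given in the sources used here. Probe sets with 1 gene symbol (41091) were averaged per gene, 1801 had several symbols and 11721 none. Each array was shifted so that its median gene matched that of its matched array. limma 3.58.1 in R 4.3.3 fitted E2-BSA, ICI, G15, the other agents and the spike-in set additively, with a trend and Benjamini-Hochberg adjustment at 0.05, and was tested on simulated data. The named genes are up to 12 per direction by the smaller pair difference, up to 4 per list by size, all steroid receptors, and 5 per direction by p in the tests of E2-BSA and of G15; exceptions are said to be chosen later. The members and lists were chosen with earlier results of these data known. Alternatives are given in the closing section. Promoters came from RefSeq. The replicate numbers do not pair the arrays.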

Additional observations from a re-analysis of the deposited data

Results flagged for a closer look

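The histone genes had medians on opposite sides of 0 in the 2 settings, -0.1217 in ICI minus control 2 and 0.2355 in E2-BSA+ICI minus E2-BSA 2, over 16 genes. The difference between the settings was not tested for the list. By gene, limma gave 0 calls for the interaction, and the E2-BSA 2 array was lower than control 2 for H2BC21 (-0.76 against -0.05) and H2AC6 (-0.71 against -0.07).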

How the results depend on the processing

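limma called 0 genes for ICI in the fit to 11 arrays, 380 with the 4 paired arrays and 96 with these and no term for E2-BSA. Leaving out 1 array at a time gave 0 to 38 calls, the calls coming only without the G15 array (38) or the E2-BSA+G15 array (32), and leaving out both, added after the data were seen, gave 41; the cause was not tested. Every other alternative run gave 0 calls for ICI, for its interaction with E2-BSA and against G15, with 496 to 3219 genes at an unadjusted p under 0.05 for ICI in those settings. Of the pair differences past 0.5 in both pairs, 124 were lower and 22 higher; without centring there were 81 and 112, after quantile normalization 252 and 116, with the most variable probe set 432 and 42, with a threshold of 1 23 and 0, and, in alternatives added after the data were seen, 436 and 275 at 0.3, 53 and 1 with the median of 2 or more probe sets, and 64 and 22 in genes with 1 probe set. The 24 genes named as lowest or highest in both pairs kept their direction in all 528 values under the alternatives of the test. They were chosen by their pair differences on these same arrays, so this was largely fixed by the choice.

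Among the other named genes, none of which passed the test with all 11 arrays, some directions turned. Averaging duplicates over both spike-in sets with no set term gave GPER1 -0.047, NR3C1 0.016, NR3C2 -0.75, ESRRA -0.022, ESRRB -0.053, NR4A2 -0.44, SOD2 0.25, EDEM1 -0.46, MT1E -0.053, IFIT2 -0.39, CDT1 0.0032, E2F3 0.049, ORC6 0.29, AURKB 0.10, H2BC21 -0.10, RPL38 0.082, RPLP2 0.14 and RPL14 0.37. The median of probe sets gave NR3C1 0.096, ESRRB -0.028 and RPL14 0.11, and the most variable probe set ESR2 -0.073, ESRRB -0.11 and SEC24D 0.072. Without centring the values were PGR 0.0077 and NR3C1 0.11, and quantile normalization gave CXCL8 a value of 0. Leaving out 1 array at a time, differences ran for NR3C1 from -0.10 to 0.052, NR3C2 from -0.052 to 0.14, ESRRB from -0.11 to 0.12, ESRRG from -0.087 to 0.36, KCNK9 from -0.018 to 0.53, NR4A2 from -0.054 to 0.56, RGS2 from -0.44 to 0.070, MT1M from -0.002 to 0.44 and H2BC21 from -0.054 to 0.88, turning only where control 2, E2-BSA 2 or an ICI array was left out. Of 205 medians of the 41 lists under alternatives 109 moved by more than the spread between the pairs. The pairing by E2-BSA was fitted with the 4 paired arrays; a block by replicate number was not, since the groups with ICI have 1 array each. One array per treatment, values that give no level or signal over background, and unstated processing limit all of these results.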
